A study of Mus musculus with 2 samples.

Results

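The genes described here are the receptors *Cd28*, *Ctla4* and *Icos* of the CD28 family and their B7 ligands *Cd80*, *Cd86* and *Icosl*, 6 of the 32589 genes listed in both libraries. They were found by symbol, and each symbol matched 1 gene. Single-cell RNA-Seq was carried out on livers bearing cholangiocarcinoma (CCA) that had been started by hydrodynamic tail vein injection of plasmids for the Notch intracellular domain and myristoylated AKT. Both groups carried the shYT genotype, in which shRNAs against YAP and TAZ are expressed in all tissues through the CAG-rtTA3 driver once doxycycline is given, here from day 25. One group received PBS and the other the anti–PD-1 antibody clone RMP1-14 on days 26, 29 and 32, and livers were collected on day 33. The labels give neither the shRNA line nor the number, sex or age of the animals. The study's text names several mice in each group and mice of both sexes, and hashtags were left out for these libraries, so a cell cannot be traced to its animal. Each group was 1 library without a replicate, so no test between groups was possible, and every difference below is one between these 2 libraries.

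CD28 on T cells binds CD80 and CD86 on antigen-presenting cells and gives the second signal that a T cell needs, beside its antigen receptor, to divide and make cytokines. CTLA-4, stored in regulatory T cells and made by other T cells after activation, binds the same ligands more tightly, withholds them from CD28 and strips them from the presenting cell. ICOS appears on activated T cells, binds ICOS ligand (gene *Icosl*) on B cells, macrophages and dendritic cells, and supports helper and regulatory T cells. PD-1, the target of the antibody given here, belongs to the same receptor family and dampens signaling from CD28.

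On the GRCm38 (mm10) assembly, the 3 receptor genes lie side by side on the plus strand of chromosome 1 in GENCODE vM21. *Cd28* spans 60716800 to 60773359, *Ctla4* spans 60887000 to 60915832 and *Icos* spans 60977927 to 61000320, with gaps of 113641 and 62095 bases between them. *Cd80* (38455561 to 38496335, plus strand) and *Cd86* (36603869 to 36666081, minus strand) share chromosome 16, and *Icosl* (78069302 to 78083913, plus strand) lies on chromosome 10. All 6 code for proteins. A processed pseudogene, *Rpl18-ps1*, overlaps the span of *Ctla4*, and an unconfirmed transcript, *Gm37039*, overlaps that of *Icos*, both on the same strand as their host. Only gene spans were compared, and whether UMIs of these pairs were mixed in the counting was not tested.

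For 3 of the members there was an entry among the RefSeq promoters (GRCm38.p6), and the 250 bases before the start are shown because *Ctla4* had the largest difference among the receptors in T cells, while *Cd80* and *Icosl* differed in opposite directions in several classes of presenting cells. *Cd28*, *Icos* and *Cd86* had no entry. The RefSeq start used for each window lies inside the GENCODE span given above, because the span also covers transcripts that start farther upstream. Both strands were searched for the NFAT core GGAAA, the AP-1 site TGANTCA, a STAT site TTCNNNGAA and a wide NF-kB pattern (3 G and 2 C with any 5 bases between them), and matches are in capitals.
Ctla4 promoter, chr1:60908775-60909024, plus strand: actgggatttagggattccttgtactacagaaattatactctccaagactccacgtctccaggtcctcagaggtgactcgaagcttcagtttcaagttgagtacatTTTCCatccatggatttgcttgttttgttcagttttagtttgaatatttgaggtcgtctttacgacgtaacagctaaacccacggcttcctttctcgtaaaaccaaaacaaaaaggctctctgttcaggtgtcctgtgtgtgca
Cd80 promoter, chr16:38458683-38458932, plus strand: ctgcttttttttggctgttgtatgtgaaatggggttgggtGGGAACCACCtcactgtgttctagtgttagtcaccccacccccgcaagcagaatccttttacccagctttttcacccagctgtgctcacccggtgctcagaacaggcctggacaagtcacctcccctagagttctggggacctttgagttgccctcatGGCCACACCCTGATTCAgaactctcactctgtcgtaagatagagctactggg
Icosl promoter, chr10:78069118-78069367, plus strand: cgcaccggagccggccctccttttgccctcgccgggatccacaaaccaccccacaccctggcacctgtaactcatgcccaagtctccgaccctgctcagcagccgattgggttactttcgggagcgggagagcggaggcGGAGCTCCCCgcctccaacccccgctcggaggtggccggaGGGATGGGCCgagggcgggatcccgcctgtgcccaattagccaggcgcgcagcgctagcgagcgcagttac
The *Ctla4* window held 1 NFAT core, read on the minus strand, and no other match. The *Cd80* window held 2 NF-kB patterns, the second directly followed by 1 AP-1 site, and the *Icosl* window held 2 NF-kB patterns. Among all 32851 promoters, windows of the same length held the NFAT core in 55.6%, the NF-kB pattern in 45.8%, the STAT site in 7.02% and the AP-1 site in 6.75%. The matches are descriptions of letters and not of binding.

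With PBS 15531 cells and with anti–PD-1 16360 cells passed the filters on detected genes and mitochondrial UMIs, with medians of 3159 and 2990 unique molecular identifiers (UMIs). Cells were placed in 14 classes by fixed markers, and class names mean cells gated on these markers. A total of 219 barcodes (1.13%) occurred in both libraries. *Xist* had 30287 UMIs with PBS and 16 with anti–PD-1, while 4 Y-linked genes had 4162 and 19037, so in the whole libraries the sex of the cells and the treatment cannot be told apart. Ratios were also taken within the 1481 and 7861 cells that had a UMI of a Y-linked gene and none of *Xist* (Y-linked cells). Genes known to be induced during tissue dissociation were higher in the anti–PD-1 library in most classes. In T cells, 14 of 14 were higher, with a median log2 ratio of 0.69, and their part in the results below was not tested.

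Levels are UMIs of a gene per 1000000 UMIs of its class (CPM). Ratios are log2 of anti–PD-1 over PBS, and their 95% intervals hold only the error of counting. The text uses "2-fold" for a ratio of at least 2 in either direction with at least 20 UMIs in both libraries together. Ratios of all genes were not centered on 0. Their median, over genes with at least 20 UMIs in each library, was -0.20 in T cells, -0.13 in CD8 T cells, -0.16 in CD4 T cells, -0.17 in NK cells and B cells, -0.33 in neutrophils, -0.15 in monocytes/macrophages, -0.17 in Kupffer cells and -0.16 in other monocytes/macrophages. Relative to the median gene, each ratio of a member is higher by that amount. Fewer positive cells and less RNA per cell cannot be told apart in such sums, and shares of cells with a UMI are given beside them.

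**Figure D1:**
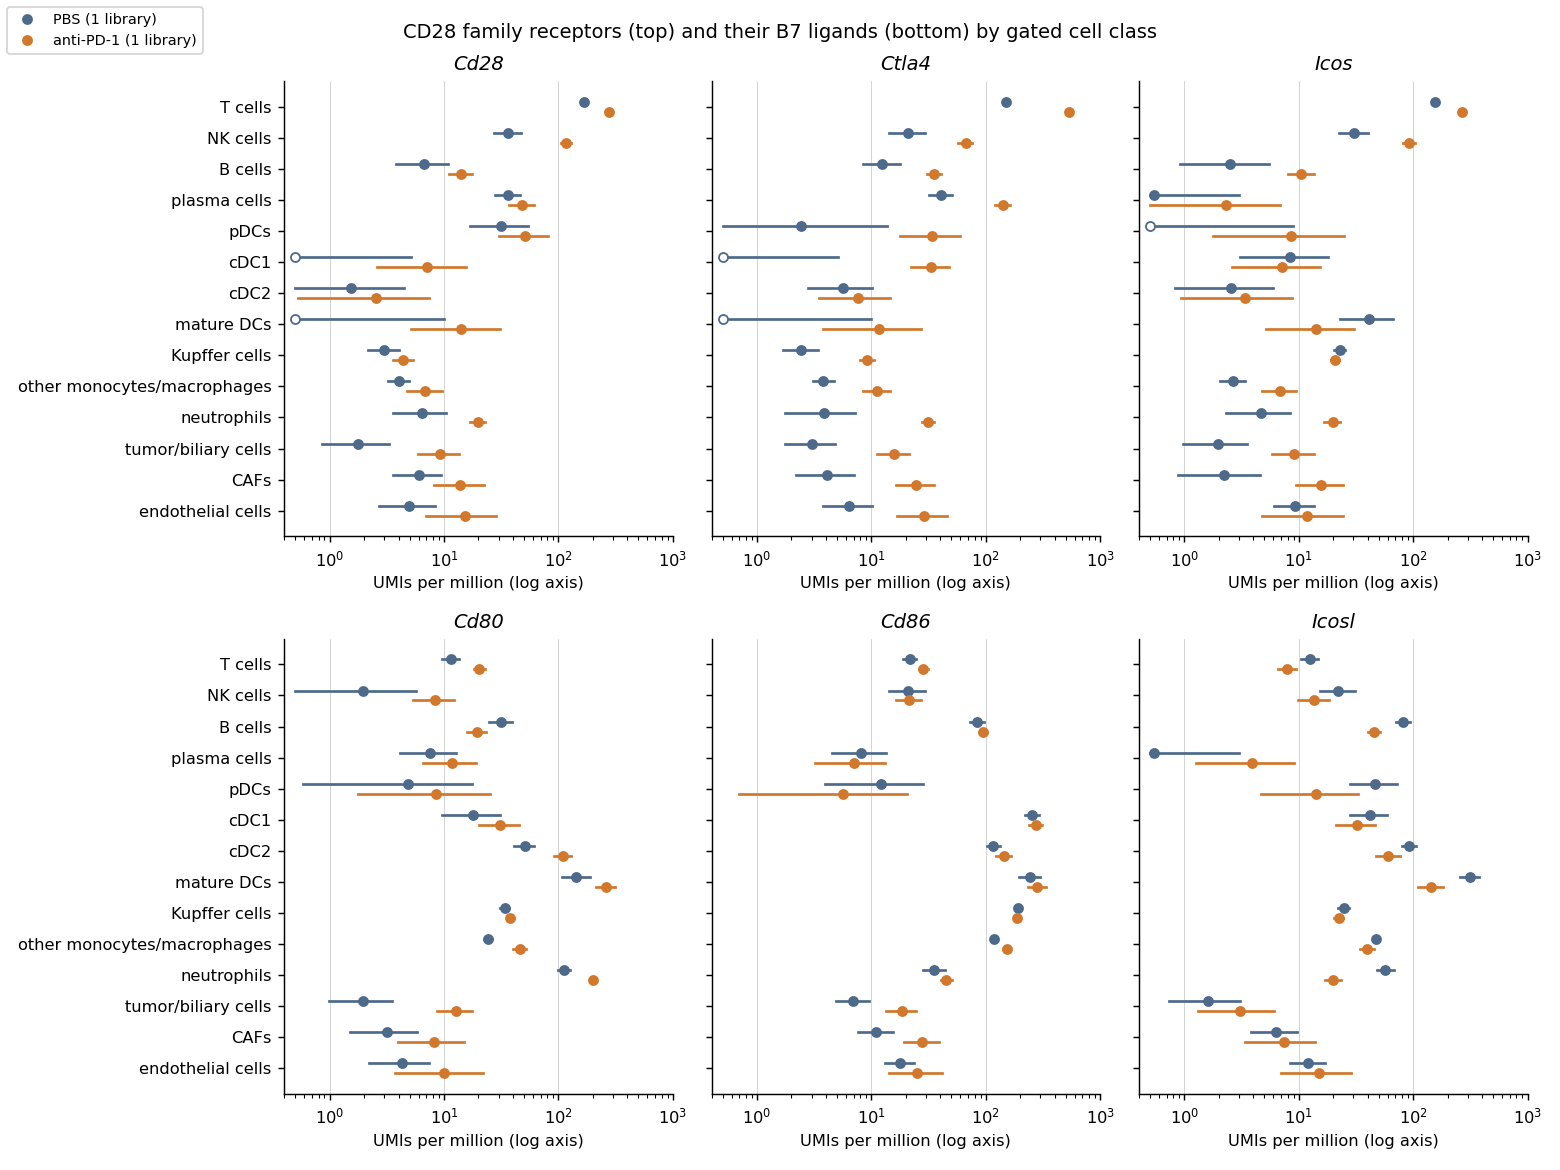
CPM (log axis) of each member in 14 gated classes, with blue points for the PBS library, orange points for the anti–PD-1 library and lines for 95% counting intervals. Open points on the left edge mark 0 UMIs. The receptors are highest in T cells. Among the 3 receptors in T cells, *Ctla4* differs most between the libraries (149 and 537). Its ratio is larger in some classes with lower levels, such as neutrophils (3.82 and 31.4). *Icosl* is highest in mature DCs (312 and 142.6), and so is *Cd80* (143.7 and 259.5).

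T cells held most receptor UMIs of both libraries. They accounted for 79.6% and 79.0% of all *Cd28* UMIs, 79.0% and 84.0% of *Ctla4* UMIs, and 73.3% and 75.2% of *Icos* UMIs in the PBS and anti–PD-1 libraries. *Ctla4* in T cells stood at 149 CPM (142 to 156) with PBS and at 537 CPM (526 to 548) with anti–PD-1, on 1736 and 8905 UMIs. The log2 ratio was 1.85 (1.78 to 1.93). Among the 6 members, *Ctla4* was the one that was 2-fold higher in T cells, where 3.43% of all genes were. *Cd28* was 167 CPM and 277 CPM in T cells, a log2 ratio of 0.73 (0.66 to 0.81). *Icos* was 155 CPM and 268 CPM, a log2 ratio of 0.79 (0.71 to 0.87). The interval lay above 0 for all 3 receptors, as it did for 13.6% of all genes in T cells.

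CD8 T cells, gated on *Cd8a* or *Cd8b1* without *Cd4*, are the killer cells that recognize antigen on MHC class I. There were 988 with PBS and 1431 with anti–PD-1. *Ctla4* was 95.6 CPM (85.6 to 106) and 335 CPM (322 to 348) in them, with a log2 ratio of 1.81. *Cd28* was 104 CPM and 236 CPM, with a log2 ratio of 1.18 (1.01 to 1.35). *Icos* was 68.4 CPM and 173 CPM, with a log2 ratio of 1.34 (1.13 to 1.54). All 3 receptors and *Cd80* were thus higher by 2-fold or more in CD8 T cells with anti–PD-1, against 4.09% of all genes. For *Cd80* this rested on 21 and 108 UMIs. *Cd80* was also 2-fold higher in CD4 T cells (1.06, on 31 and 84 UMIs), against 3.55% of all genes. The same held in T cells that passed none of the subset gates (1.39, on 36 and 96 UMIs), against 3.97%. In all T cells the 6 neutrophil markers summed to 0.546% and 1.40% of their level in neutrophils, and all 6 were higher with anti–PD-1. The monocyte/macrophage markers summed to 5.91% and 5.66% of theirs. The neutrophil gene *S100a8* was 87.0 CPM and 459 CPM in CD8 T cells. The part of such RNA in these *Cd80* ratios was not tested. The ratio of *Icos* was 1.98 where *Cd8a* and *Cd8b1* were both detected. It was 0.51 among Y-linked cells, on 36 UMIs with PBS. In the Y-linked CD8 T cells, the ratio of *Ctla4* was 2.54, on 17 UMIs with PBS.

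CD4 T cells without *Foxp3*, the helper cells, numbered 726 and 828. *Ctla4* was 147 CPM with PBS and 633 CPM with anti–PD-1 in these cells, a log2 ratio of 2.11 (1.95 to 2.26), and 3.55% of all genes were 2-fold higher there. *Icos* was 189 CPM and 338 CPM, a log2 ratio of 0.84 (0.69 to 0.99). *Cd28* was 233 CPM and 347 CPM, a log2 ratio of 0.57 (0.43 to 0.71), and in Y-linked cells the ratio was 0.31 (-0.02 to 0.65). The interval of *Ctla4* did not overlap those of the other receptors in helper cells.

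*Foxp3* T cells, gated on the gene of the regulatory T cell transcription factor, had the highest *Ctla4* and *Icos* levels of all classes in both libraries. They numbered 251 and 249. *Ctla4* was 571 CPM (527 to 617) with PBS and 1919 CPM (1843 to 1997) with anti–PD-1, a log2 ratio of 1.75. *Icos* was 275 CPM and 561 CPM, a log2 ratio of 1.03 (0.83 to 1.23), and *Cd28* was 190.0 CPM and 313 CPM, a log2 ratio of 0.72 (0.48 to 0.97). *Ctla4* and *Icos* were 2-fold higher, against 4.90% of all genes. With cells gated at equal depth, the ratio of *Icos* was 0.70 on 144 and 286 UMIs.

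The *Foxp3* T cells formed a similar part of the T cells in both libraries, 7.25% and 6.62%, and held 36.5% of the *Ctla4* UMIs of T cells with PBS and 27.0% with anti–PD-1. CD8 T cells made up 28.5% and 38.0% of T cells, and their part of T cell *Icos* UMIs was 13.2% and 28.7%. T cells that passed none of the subset gates made up 43.2% and 33.3%. The gates rest on any UMI in unthinned cells, and T cells were deeper with anti–PD-1 (median 3553.5 against 2736 UMIs). The part of depth in these shares, and in the subset mix used next, was not tested. With the levels of the PBS library and the subset mix of the other, *Ctla4* would be 139.6 CPM, *Cd28* 156 CPM and *Icos* 138 CPM in T cells, all below the PBS values. T cells that passed none of the subset gates had *Ctla4* at 84.7 CPM and 406 CPM, a log2 ratio of 2.26, with 3.97% of all genes 2-fold higher.

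**Figure D2:**
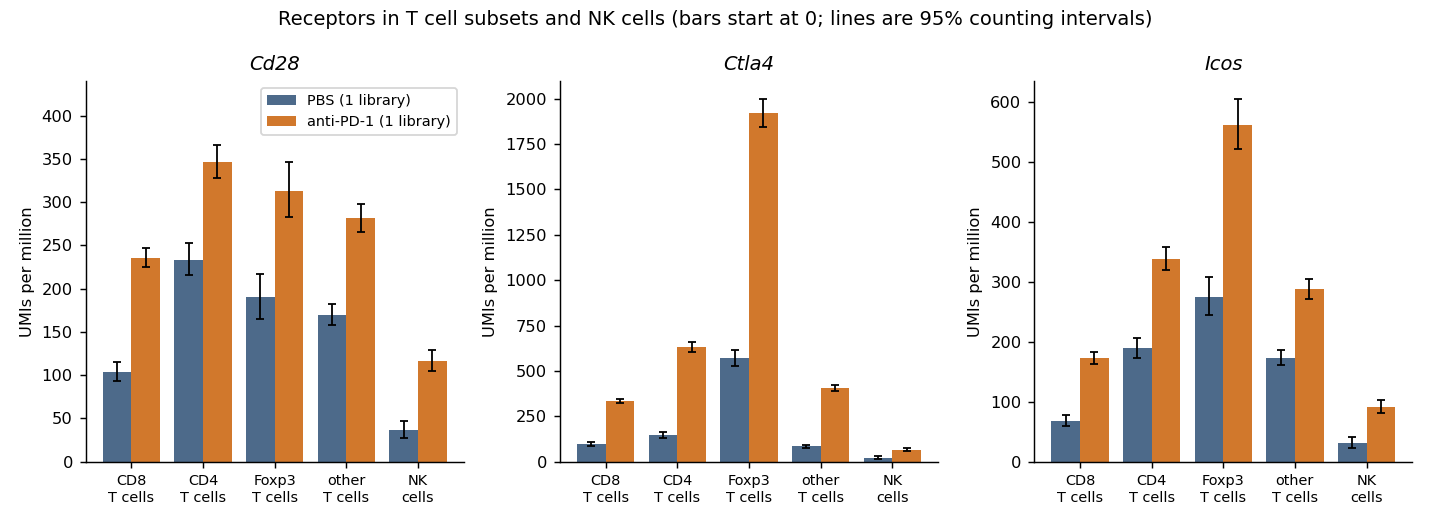
Bars give CPM of *Cd28*, *Ctla4* and *Icos* in T cell subsets and NK cells for the PBS library (blue) and the anti–PD-1 library (orange), each from 1 library, with 95% counting intervals. All 15 pairs are higher in the anti–PD-1 library without overlap of the intervals, and *Foxp3* T cells have the highest *Ctla4* (571 and 1919) and *Icos* (275 and 561).

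Cells with a receptor UMI were counted after thinning each cell to 1000 UMIs, because T cells were deeper in the anti–PD-1 library (median 3553.5 UMIs) than in the PBS library (2736). *Ctla4* was found in 10.8% (9.80 to 11.9) of T cells with PBS and in 27.8% (26.4 to 29.3) with anti–PD-1. The unthinned shares were 21.0% and 46.5%. Cells kept the class and subset they had before thinning. In *Foxp3* T cells, 46.0% and 75.1% had a *Ctla4* UMI, in CD4 T cells 11% and 33.0%, and in CD8 T cells 8.89% and 22.4%. Neutrophils, which should lack the gene, showed 0.355% and 1.77% at the same thinned depth, with medians of 1596.5 and 2143 UMIs before thinning. *Icos* was found in 12.3% and 19.3% of T cells and *Cd28* in 14.5% and 23.4%, against 0.266% and 1.24%, and 0.355% and 1.07%, in neutrophils.

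More than one receptor was also seen more often in the same thinned cell of the anti–PD-1 library. UMIs of at least 2 of the 3 receptors were present in 2.25% and 10.9% of CD8 T cells, in 7.50% and 22.3% of CD4 T cells, and in 18.5% and 48.6% of *Foxp3* T cells. Cells without any of them made up 78.7% and 56.7% of CD8 T cells and 39.1% and 13.7% of *Foxp3* T cells. The UMIs were unevenly spread over cells. The 49 CD8 T cells richest in *Ctla4* (5% of the class) held 50% of its UMIs in that class with PBS. With anti–PD-1 the 72 richest CD8 T cells held 35.2%. In *Foxp3* T cells, the 13 and 12 richest cells held 21.5% and 15.9%.

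**Figure D3:**
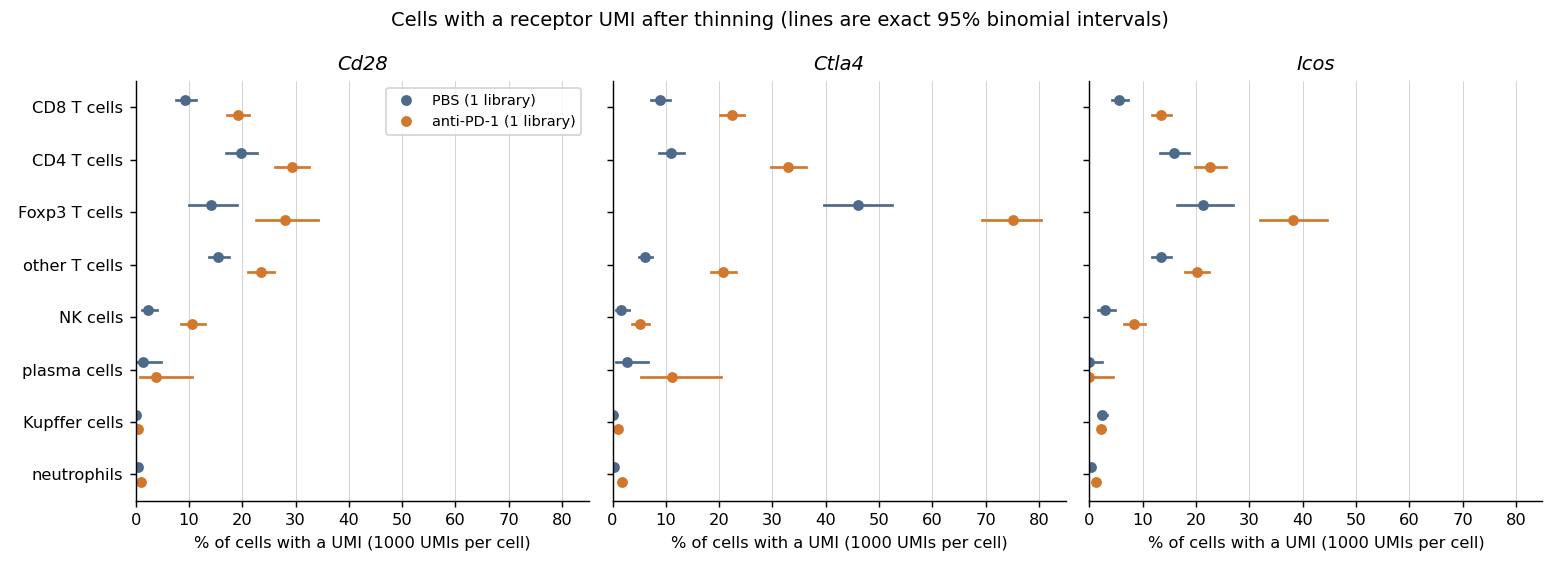
Share of cells (%) with a UMI of each receptor after thinning to 1000 UMIs per cell, for the PBS library (blue) and the anti–PD-1 library (orange), with exact 95% binomial intervals. *Ctla4* reaches 46.0% and 75.1% in *Foxp3* T cells, while neutrophils stay at 0.355% and 1.77%.

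NK cells, innate killers that share receptors with T cells, had lower levels of all 3 receptors than T cells, and the levels were higher with anti–PD-1. *Cd28* was 36.3 CPM and 117 CPM, a log2 ratio of 1.68 (1.27 to 2.12). *Icos* was 30.5 CPM and 91.4 CPM, and *Ctla4* was 20.7 CPM and 66.6 CPM. All 3, and *Cd80* on 28 UMIs in all, were higher by 2-fold or more, against 3.94% of all genes in NK cells. The T cell markers summed to 11.9% and 10.4% of their level in T cells there, with none of the 6 at 0. In the 263 and 326 NK cells without a UMI of any T cell marker, *Cd28* was 34.7 CPM and 123 CPM, *Icos* 33.2 CPM and 83.8 CPM and *Ctla4* 21.1 CPM and 67.2 CPM. In Y-linked NK cells, the ratio of *Cd28* was 0.88, on 15 UMIs with PBS.

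Plasma cells, the antibody-secreting descendants of B cells, had *Cd28* and *Ctla4* but hardly any *Icos*. *Ctla4* was 40.4 CPM (31.7 to 50.6) with PBS and 140.3 CPM (121 to 162) with anti–PD-1, in 162 and 88 cells, a log2 ratio of 1.80, and 5.36% of all genes were 2-fold higher. *Cd28*, which long-lived plasma cells are known to carry, was 36.0 CPM and 48.1 CPM, with an interval of the ratio from -0.11 to 0.94. *Icos* had 1 UMI and 3 UMIs. The T cell markers summed to 1.10% and 1.16% of their level in T cells, and in plasma cells without any of them *Ctla4* was 39.3 CPM and 205 CPM. Without cells holding 2 markers of any other class, 3 and 14 of the 75 and 181 UMIs were left, too few for a 2-fold call, and in Y-linked cells the ratio was 3.53 on 2 and 122 UMIs. The UMIs were concentrated, since the 8 richest cells held 62.7% with PBS and the 4 richest held 33.1% with anti–PD-1. After thinning, 2.65% (0.726 to 6.64) and 11.25% (5.28 to 20.3) of plasma cells had a *Ctla4* UMI.

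The proportions of the 3 receptors were also taken in classes other than T cells. Of the receptor UMIs in T cells of the anti–PD-1 library, 25.6% were *Cd28*, 49.6% *Ctla4* and 24.8% *Icos*. The same shares were 27.8%, 44.3% and 27.8% in neutrophils and 27.0%, 46.1% and 27.0% in tumor/biliary cells. All 3 receptors were higher there by 2-fold or more with anti–PD-1 as well, against 4.70% of genes in neutrophils and 6.25% in tumor/biliary cells, and the T cell markers stood beside them at 3.86% and 5.73%, and at 1.28% and 2.62%, of their level in T cells. In NK cells they were 42.5% *Cd28*, 24.2% *Ctla4* and 33.3% *Icos*, in plasma cells 25.2%, 73.6% and 1.22%, and in Kupffer cells 12.8%, 26.8% and 60.4%. With PBS the shares, in the same order, were 35.4%, 31.6% and 33.0% in T cells, 42.9%, 25.7% and 31.4% in neutrophils (35 UMIs) and 26.3%, 44.7% and 28.9% in tumor/biliary cells (38 UMIs). They were 41.5%, 23.7% and 34.8% in NK cells, 46.9%, 52.4% and 0.699% in plasma cells, and 10.6%, 8.54% and 80.9% in Kupffer cells. The part of free RNA in these receptor UMIs was not tested. *Ctla4* was 3.82 CPM and 31.4 CPM in neutrophils and 2.07 CPM and 13.4 CPM in those without a T cell marker. B cells had *Ctla4* at 12.5 CPM and 35.2 CPM, and at 12.7 CPM and 36.3 CPM in the cells without a T cell marker.

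Kupffer cells, the resident macrophages of the liver sinusoids, held 322 and 485 *Icos* UMIs, of which 258 and 355 lay in cells that also had endothelial markers. Kupffer cells were monocytes/macrophages with at least 2 of 6 Kupffer markers. They had *Icos* at 22.9 CPM (20.4 to 25.5) with PBS and 20.7 CPM (18.9 to 22.7) with anti–PD-1, while other monocytes/macrophages had 2.64 CPM and 6.85 CPM. *Icos* was 49.3 CPM and 33.3 CPM in cells with all 6 Kupffer markers and 2.68 CPM and 5.71 CPM in cells with none, while the T cell gene *Cd3e* was 3.27 CPM and 9.01 CPM in the former. In Kupffer cells without any T cell marker, *Icos* was 22.1 CPM and 19.2 CPM. After thinning, 2.31% and 2.17% of Kupffer cells had an *Icos* UMI, against 0.415% and 0.684% of other monocytes/macrophages.

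The ratio of *Icos* in Kupffer cells was -0.14 (-0.35 to 0.07), and its direction depended on the gate. It was -0.42 with at least 3 Kupffer markers and 0.47 without cells holding 2 markers of another class, where the levels were 7.0 CPM (4.75 to 9.93) and 9.71 CPM (7.05 to 13.03). With anti–PD-1 that interval overlapped the one of all other monocytes/macrophages, which were not filtered in this way (4.77 to 9.53). With PBS the 2 intervals did not overlap (2.03 to 3.37 in the other monocytes/macrophages). The class whose markers were most often found in Kupffer cells was the endothelial one, led by *Cdh5* and *Stab2*, in 38.7% and 37.3% of cells. *Icos* was 42.9 CPM and 34.2 CPM in those cells. Whether they are Kupffer cells with these transcripts or pairs of cells was not tested.

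**Figure D4:**
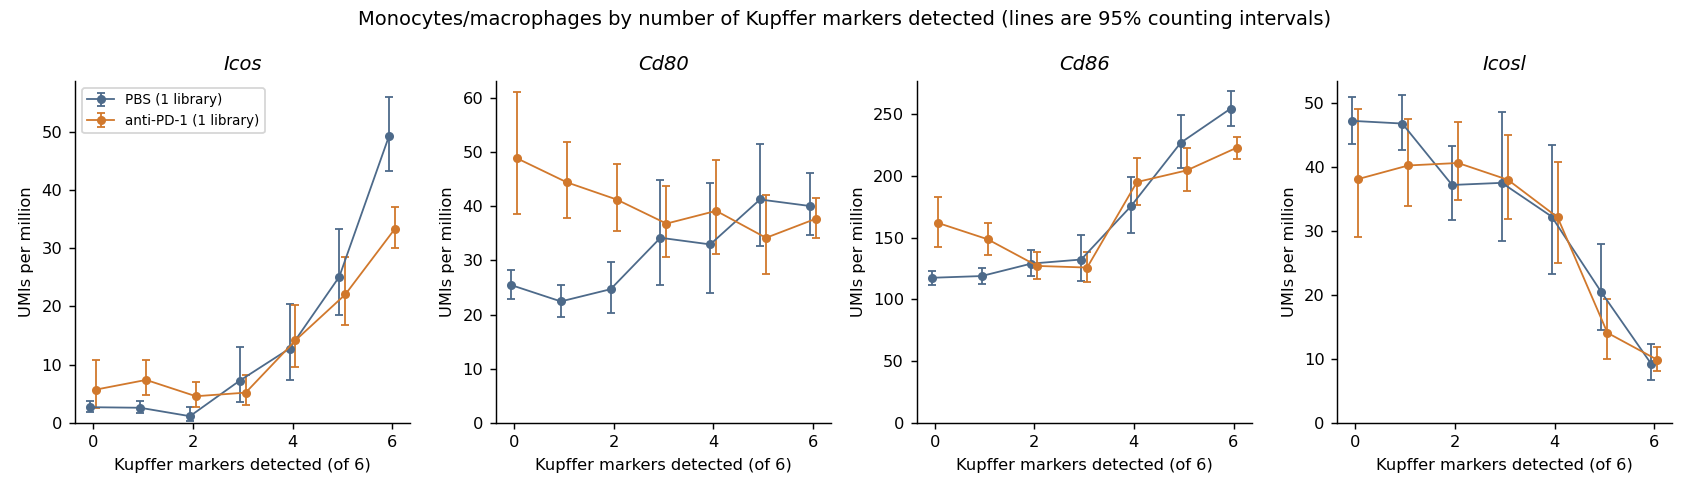
Monocytes/macrophages by the number of Kupffer markers detected (x axis, 0 to 6), with CPM on the y axes, blue for PBS, orange for anti–PD-1 and lines for 95% counting intervals. *Icos* is 2.68 without a marker and 49.3 with all 6 in the PBS library, *Icosl* is 47.2 and 9.20, and *Cd86* is 117 and 254. *Cd86* has a low in the middle with anti–PD-1 (162 without a marker, 126 with 3 and 223 with all 6), and *Cd80* differs between the libraries at the low end.

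*Cd80*, the ligand that both CD28 and CTLA-4 bind and that rises on activated presenting cells, was highest in mature DCs, the migratory dendritic cells marked by *Ccr7* and *Fscn1*. It was 143.7 CPM (108 to 188) with PBS and 259.5 CPM (213 to 312) with anti–PD-1 in 80 and 74 cells, a log2 ratio of 0.85 (0.37 to 1.35). Single cells weighed heavily, as 4 cells held 37.7% and 44.1% of the UMIs, and the ratio of the mean over cells was 0.10. In Y-linked mature DCs the ratio was 0.68 (-0.27 to 1.78), on 10 and 95 UMIs. cDC2, the conventional dendritic cells that prime helper T cells, had 50.6 CPM and 109 CPM, a log2 ratio of 1.11 (0.72 to 1.51), and 3.69% of all genes were 2-fold higher there. Without cells holding a neutrophil marker, *Cd80* was 46.4 CPM and 125 CPM in cDC2. In Y-linked cDC2, the ratio was 0.48 (-0.29 to 1.35), on 16 UMIs with PBS.

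Neutrophils had the second highest *Cd80* level in both libraries. It was 112 CPM (98.9 to 126) with PBS and 199.6 CPM (190.0 to 209.6) with anti–PD-1, a log2 ratio of 0.83 (0.65 to 1.03). After thinning, 9.93% and 16.2% of neutrophils had a *Cd80* UMI, against 0.192% and 1.04% of NK cells, whose median depth of 2553 and 3251.5 UMIs was higher. In neutrophils without any monocyte/macrophage marker, *Cd80* was 115 CPM and 203 CPM. Since neutrophils were also more numerous in the anti–PD-1 library (1240 and 3100 cells), they held 13.9% of all *Cd80* UMIs with PBS and 41.6% with anti–PD-1. Monocytes/macrophages held 55.7% and 28.8%.

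Within the monocytes/macrophages, *Cd80* was 24.2 CPM (22.3 to 26.2) and 45.8 CPM (40.1 to 52.1) in the cells with fewer than 2 Kupffer markers, a log2 ratio of 0.92 (0.70 to 1.14). It was 34.1 CPM and 38.0 CPM in Kupffer cells, a log2 ratio of 0.16 (-0.01 to 0.32), where the median gene stood at -0.17. The difference between these 2 ratios was not tested. The ratio in all monocytes/macrophages was 0.50, from 27.9 CPM to 39.4 CPM. In the 2062 and 988 of them without a neutrophil marker, *Cd80* was 27.8 CPM and 35.2 CPM, a log2 ratio of 0.34 (0.11 to 0.57). B cells went the other way, with 31.2 CPM and 19.4 CPM and a log2 ratio of -0.68 (-1.12 to -0.24). In Y-linked B cells it was -0.29 (-1.29 to 0.89), on 9 and 76 UMIs. *Foxp3* T cells had *Cd80* at 41.4 CPM and 39.9 CPM, above the 6.01 CPM and 14.6 CPM of CD8 T cells, and without cells holding a monocyte/macrophage marker they had 38.6 CPM and 27.3 CPM.

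*Cd86*, the ligand that most presenting cells carry before activation, was 244 CPM and 281 CPM in mature DCs, 253 CPM and 273 CPM in cDC1 (the dendritic cells that prime CD8 T cells) and 83.2 CPM and 94.3 CPM in B cells, and the intervals of all 3 ratios included 0. Relative to the median gene, the ratio in B cells was 0.35 (0.11 to 0.59). The interval lay above 0 in cDC2, with 117 CPM and 144 CPM (0.31, 0.01 to 0.60), and in neutrophils, with 35.2 CPM and 45.3 CPM (0.36, 0.02 to 0.73). Of the classes with little *Cd86*, 2 were 2-fold higher. Tumor/biliary cells had 6.94 CPM and 18.3 CPM (log2 ratio 1.40, 0.76 to 2.05; 6.25% of all genes were 2-fold higher), and CAFs, the fibroblasts of the tumor, had 11.02 CPM and 27.8 CPM (1.34, 0.61 to 2.06; 4.67% of all genes). The monocyte/macrophage markers summed there to 2.31% and 3.53%, and to 5.49% and 5.84%, of their level in monocytes/macrophages, none of the 6 at 0. The Kupffer gene *Clec4f* was 27.9 CPM and 127 CPM in tumor/biliary cells and 94.1 CPM and 199.6 CPM in CAFs. In cells without any of the 6 markers, *Cd86* was 5.06 CPM and 18.9 CPM in tumor/biliary cells and 7.54 CPM and 29.3 CPM in CAFs, on 13 to 27 UMIs. NK cells (20.7 CPM and 21.2 CPM), plasma cells (8.07 CPM and 6.98 CPM), endothelial cells (17.7 CPM and 25.2 CPM) and pDCs had ratios whose intervals included 0. In all monocytes/macrophages it was 145 CPM and 179.8 CPM, a log2 ratio of 0.31 (0.26 to 0.37), but among Y-linked cells the ratio was 0.0011 (-0.11 to 0.11) on 874 and 3856 UMIs. Kupffer cells had 191 CPM (183 to 198) and 186 CPM (180.3 to 191), a ratio of -0.04 that is 0.13 relative to the median gene, -0.13 with at least 3 Kupffer markers and -0.26 (-0.41 to -0.12) in Y-linked cells. Other monocytes/macrophages had 118 CPM and 153 CPM, a log2 ratio of 0.37 (0.26 to 0.49). That ratio was 0.23 and 0.18 with the Kupffer gate at 3 and 4 markers, and 0.08 (-0.11 to 0.27) in Y-linked cells.

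The makeup of the monocytes/macrophages differed between the libraries, and its part in the ligand ratios of the whole class was not tested. Kupffer cells were 33.1% of the class with PBS and 74.7% with anti–PD-1, and 37.1% and 82.1% of its RNA. With the PBS levels in both subclasses and the anti–PD-1 mix, *Cd86* would be 178 CPM in the class, against 179.8 CPM measured. *Icosl* would be 28.7 CPM against 25.4 CPM measured, and *Icos* 19.3 CPM against 18.3 CPM. *Cd80* would be 32.3 CPM against 39.4 CPM. Kupffer markers were also found outside the class, since 12.4% and 37.7% of neutrophils had at least 2 of them, and the part of free RNA or cell pairs in the gate was not tested.

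*Icosl*, the ligand of ICOS, was lower in the anti–PD-1 library in most presenting cells. Mature DCs had the highest level, 312 CPM (257 to 374) with PBS and 142.6 CPM (109 to 183) with anti–PD-1, a log2 ratio of -1.13 (-1.60 to -0.67), where 8.40% of all genes were 2-fold lower. The direction turned in Y-linked mature DCs, where the ratio was 0.43 on 6 and 48 UMIs from 9 and 42 cells. Neutrophils had 57.3 CPM (48.0 to 67.8) and 20.1 CPM (17.1 to 23.4), giving a log2 ratio of -1.51 (-1.85 to -1.17), with 14.4% of all genes 2-fold lower. In Y-linked neutrophils the ratio was -0.98 (-1.98 to 0.19), on 9 and 84 UMIs. Without cells holding a monocyte/macrophage marker, they had 59.2 CPM and 19.05 CPM. The neutrophils were thus higher in *Cd80* and lower in *Icosl* in the same library.

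B cells, for which ICOS ligand is a means to receive help from T cells, had *Icosl* at 81.6 CPM (70.5 to 93.8) and 45.3 CPM (40.0 to 51.2), giving a log2 ratio of -0.85 (-1.12 to -0.57). After thinning, 7.95% (6.34 to 9.82) and 4.86% (3.90 to 5.96) of B cells had an *Icosl* UMI, against 0.106% and 0.176% of tumor/biliary cells. cDC2 had 92.0 CPM and 60.2 CPM, a log2 ratio of -0.61 (-1.03 to -0.21), and pDCs had 46.2 CPM and 14.2 CPM on 19 and 5 UMIs. In monocytes/macrophages *Icosl* was 38.7 CPM and 25.4 CPM, a log2 ratio of -0.61. The ratio was -0.15 (-0.35 to 0.05) within Kupffer cells and -0.25 (-0.47 to -0.03) within the others, and relative to the median gene these are 0.02 and -0.09. In Y-linked Kupffer cells it was -0.51 (-0.90 to -0.10), and without an upper limit on detected genes it was -0.25 (-0.43 to -0.06) in Kupffer cells. cDC1 had 41.5 CPM and 32.0 CPM, with an interval of the ratio from -1.18 to 0.42.

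**Figure D5:**
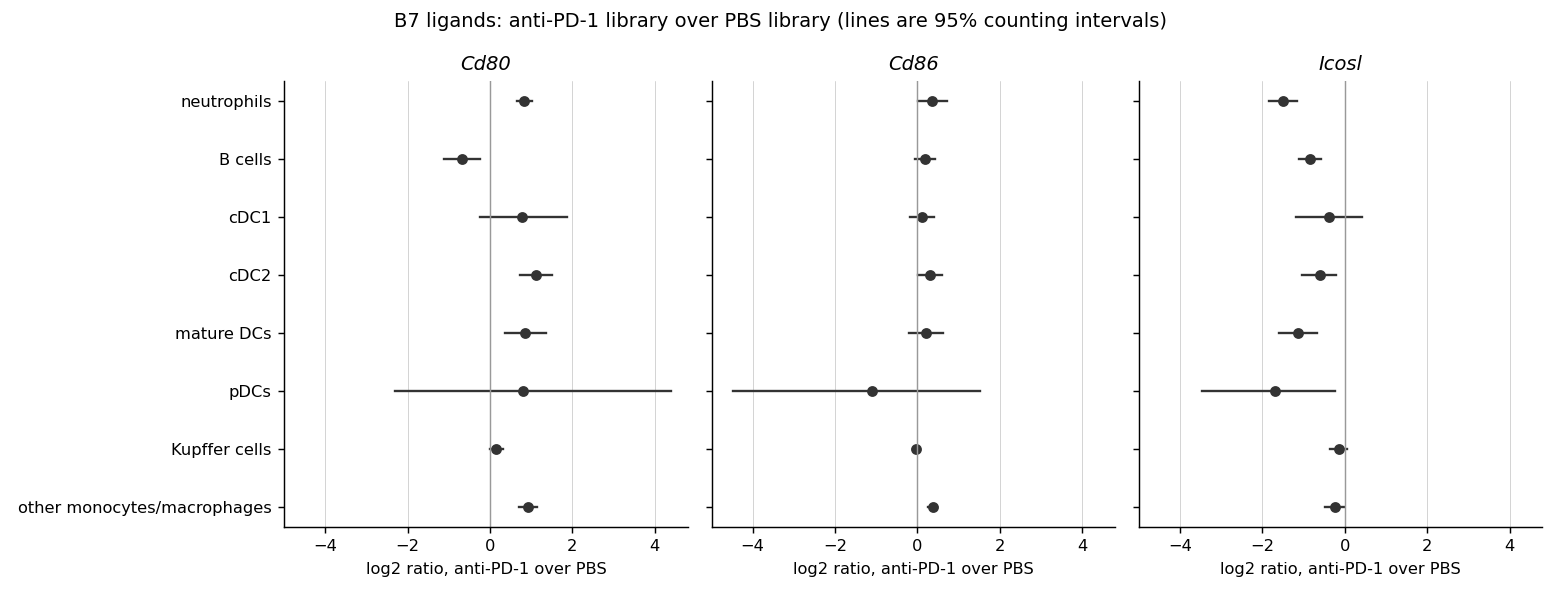
Log2 ratios of the B7 ligands, anti–PD-1 library over PBS library, in 8 classes, with 95% counting intervals and a line at 0. *Cd80* lies above 0 in neutrophils (0.83) and cDC2 (1.11) and below in B cells (-0.68), *Cd86* reaches at most 0.37 and is -1.09 in pDCs (5 and 2 UMIs), and *Icosl* lies below 0 in neutrophils (-1.51), mature DCs (-1.13) and B cells (-0.85).

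Of the 15 genes that carry the CD28 and ICOS signal, 10 were higher and 5 lower in T cells of the anti–PD-1 library and none was 2-fold different, while 3.43% of all genes were 2-fold higher and 9.56% were 2-fold lower. The median ratio of the list was 0.06 beside -0.21 for all genes with at least 20 UMIs in both libraries together. *Malt1* and *Bcl10*, which link CD28 to NF-kB, had the highest ratios of the list within CD8 T cells. *Bcl10* was 47.5 CPM and 86.6 CPM there (log2 ratio 0.87) and *Malt1* was 67.0 CPM and 105 CPM (0.65). *Vav1*, the exchange factor downstream of CD28, and *Akt1* had the lowest ratios of the list in CD8 T cells, both -0.30. Of 6 genes that move CTLA-4 to and from the cell surface, 2 were higher and 4 lower in T cells, with a median of -0.09. *Trat1*, the adaptor that brings CTLA-4 to the surface, was 65.8 CPM and 119 CPM in *Foxp3* T cells (0.85), while *Lrba*, which protects CTLA-4 from degradation, was 91.0 CPM and 84.5 CPM (-0.11).

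Of 7 other genes of the receptor and ligand families, 6 were measured in T cells. Of these, 3 were higher and 3 lower, and 1 was 2-fold higher, against 3.43% of all genes. Their median was 0.02 beside -0.21 for all genes. In monocytes/macrophages 4 of 7 were higher (median 0.43 beside -0.17 for all genes), and in B cells 2 of 5 (-0.10 beside -0.17). *Pdcd1*, the gene of PD-1, was 93.9 CPM and 184 CPM in CD8 T cells (log2 ratio 0.97). It was lower in CD4 T cells (214 CPM and 165 CPM, a ratio of -0.38) and in *Foxp3* T cells (208 CPM and 149 CPM, a ratio of -0.48). *Cd274*, the gene of PD-L1, was 31.3 CPM and 164 CPM in monocytes/macrophages (2.39), 43.7 CPM and 256 CPM in neutrophils (2.55) and 203 CPM and 439.5 CPM in mature DCs (1.11). It was 33.7 CPM and 61.8 CPM in B cells (0.87), and the interval in cDC1 was -0.06 to 2.00. *Cd276*, another B7 ligand, was 12.8 CPM and 4.81 CPM in monocytes/macrophages (-1.41). *Vsir*, the gene of VISTA, was 447 CPM and 292 CPM in neutrophils (-0.61).

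Of 6 genes that control CD80 and CD86 in presenting cells, all 6 were higher in monocytes/macrophages, with a median of 0.20 beside -0.17 for all genes counted in the same way, and 3 of 6 were higher in cDC2. In cDC1 2 of 6 were higher (median -0.50 beside -0.04 for all genes), in B cells 2 of 6 (-0.27 beside -0.17) and in mature DCs 2 of 5 (-0.16 beside -0.10). The list was also higher in classes that are not presenting cells. These were tumor/biliary cells with 6 of 6 (1.09 beside -0.05), NK cells with 5 of 5 (0.51 beside -0.17) and CD8 T cells with 5 of 6 (0.38 beside -0.14). *Cd83*, which keeps CD86 at the surface, was 184 CPM and 591 CPM in monocytes/macrophages (1.68) and 90.0 CPM and 649.8 CPM in cDC2 (2.85). It was 11.7 CPM and 54.9 CPM in CD8 T cells (2.23) and 20.8 CPM and 100 CPM in neutrophils (2.27). *March1*, the ubiquitin ligase that removes CD86 and MHC class II, was 168 CPM and 73.8 CPM in cDC2 (-1.19) and 323 CPM and 194 CPM in B cells (-0.74). *Ciita*, the activator of MHC class II genes, was 471 CPM and 249 CPM in cDC2 (-0.92), and *Cd40* was 86.1 CPM and 56.9 CPM in B cells (-0.60).

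Of 8 genes of recent T cell activation, 6 were higher and 2 lower in both CD8 and CD4 T cells. In CD8 T cells 4 were 2-fold higher and 1 was 2-fold lower, against 4.09% and 7.38% of all genes, and the median ratio was 1.13 beside -0.14 for all genes. In CD4 T cells 2 were 2-fold higher and 1 was 2-fold lower, against 3.55% and 6.72% of all genes, and the median was 0.40 beside -0.18. *Nr4a1* and *Nr4a3*, which respond early to antigen receptor signals, were 63.2 CPM and 404 CPM (2.67) and 14.0 CPM and 146 CPM (3.38) in CD8 T cells, while *Egr2* was 32.4 CPM and 5.39 CPM in CD4 T cells (-2.59) and *Il2* was 6.30 CPM and 2.98 CPM in CD8 T cells (-1.08). Most genes of the list were higher in classes without an antigen receptor too. These were 6 of 8 in monocytes/macrophages (median 1.15), 6 of 7 in neutrophils (1.25) and 6 of 6 in tumor/biliary cells (2.38). The medians of all genes there were -0.17, -0.33 and -0.05. *Nr4a1* was 139.4 CPM and 725 CPM in monocytes/macrophages (2.38). The dissociation genes *Atf3* and *Fosb* differed beside them, as *Atf3* was 18.6 CPM and 64.2 CPM in CD8 T cells (1.79) and 193 CPM and 838 CPM in monocytes/macrophages (2.12).

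Across 34 sums, made of 17 classes in 2 libraries, the genes most alike each member were sought by Pearson's r of log2 levels among 13565 genes. The points share libraries and parent classes and the values are descriptions. *Lat* (0.93) and *Tigit* (0.93) were most alike *Cd28*, *Cd28* (0.92) and *Cd5* (0.88) were among those most alike *Ctla4*, and *Trat1* (0.95) and *Cd247* (0.94) were most alike *Icos*. *Ebi3* (0.87) and *Mcemp1* (0.87) were most alike *Cd80*, *Batf3* (0.91) and *Aif1* (0.89) were most alike *Cd86*, and *Pias1* (0.89) and *Nfya* (0.86) were most alike *Icosl*. Among the members, *Cd80* had r of 0.65 with both *Cd86* and *Icosl*, and the receptors had r of 0.84 to 0.92 with each other.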

How the data were processed

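Single-cell RNA-Seq of tumor-bearing mouse liver was available as 2 libraries prepared with the Singleron GEXSCOPE kit, grouped by the treatment label. Per the labels, the deposited matrices hold UMI counts without normalization for each gene in each barcode, aligned to mm10. The submitters' notes also name Seurat 4.3. The annotation and the handling of strand are not given in the sources used here. Of the gene identifiers, 99.8% matched GENCODE vM21.

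Cells were kept if 500 to 5000 genes were detected and mitochondrial UMIs made up 10% or less. A cell took the class with most of its 6 markers, at least 2, and ties stayed unassigned. T cells were split by *Cd8a*, *Cd8b1*, *Cd4* and *Foxp3*. No doublet caller was run, and an alternative left out cells with 2 markers of another class. UMIs were summed per class and library and scaled to 1000000 UMIs (CPM), with exact Poisson intervals, and ratios carry exact conditional binomial intervals. Shares were taken after thinning to 1000 UMIs, with Clopper-Pearson intervals, leaving out 1075 and 1347 shallower cells. No p-value was computed, since a group was 1 library. UMIs are molecules, and intervals cover counting error only. The named genes of a list are the 2 highest and 2 lowest ratios per class with at least 20 UMIs, and other list genes were named after their values were seen. Genes most alike a member were ranked on log2(CPM + 10). The members, lists, markers and rules were chosen with earlier results of these data known. Scripts were tested on simulated data (Python 3.11.15, numpy 2.4.6, scipy 1.17.1, pandas 2.3.3).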

Additional observations from a re-analysis of the deposited data

Results flagged for a closer look

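*Icos* and *Cd80* moved in opposite directions in different classes, and the differences between classes were not tested. *Icos* had a log2 ratio of 2.82 (1.50 to 4.31) in CAFs on 7 and 19 UMIs, where *Cd28* (1.22) and *Ctla4* (2.58) were also higher. The T cell genes *Cd3d*, *Cd3e* and *Cd3g* together stood at 2.68% and 2.27% of their T cell level in CAFs, and *Icos* at 1.42% and 5.80%. The part of T cell RNA in these CAF ratios was not tested. In mature DCs the ratio of *Icos* was -1.54 (-3.19 to -0.09) on 15 and 6 UMIs, and its interval was -3.45 to 0.36 in those without a T cell marker. *Cd80* had a log2 ratio of 2.69 in tumor/biliary cells (11 and 33 UMIs) and of -0.68 in B cells (75 and 111 UMIs). In tumor/biliary cells the neutrophil markers summed to 0.260% and 0.845% of their level in neutrophils, and the monocyte/macrophage markers to 2.31% and 3.53% of theirs. The neutrophil gene *S100a8* was 102 CPM and 410 CPM there. *Cd80* was 2.28 CPM and 13.3 CPM in the tumor/biliary cells without a neutrophil marker, on 11 and 22 UMIs, and 1.79 CPM and 15.4 CPM in those without a monocyte/macrophage marker, on 6 and 22 UMIs.

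Unassigned cells (1859 and 2336), with fewer than 2 markers of any class or a tie between classes, had no ratio above. They counted only in the totals behind the shares of all UMIs and held member UMIs above the counting floor. Their log2 ratios were 1.52 for *Ctla4*, 1.19 for *Icos*, 0.98 for *Cd28*, 0.93 for *Cd80*, 0.59 for *Cd86* and -0.33 for *Icosl*. *Ctla4* was 21.6 CPM with PBS and 61.9 CPM with anti–PD-1 in these cells.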

How the results depend on the processing

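For 32 ratios, 303 alternatives were computed, 243 stayed within the counting interval and 298 kept the direction. The ratios of *Cd28*, *Ctla4* and *Icos* in T cells and their subsets kept their direction under all alternatives run. The alternatives of 16 ratios and the levels in cells without any marker of another class were chosen after seeing the data. No paired analysis was possible because each group is 1 library. The cause of the shifts below was not tested, unless stated.

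With median-ratio scaling, which by construction subtracts the median ratio of genes with at least 20 UMIs in each library, ratios were 2.05 for *Ctla4*, 0.98 for *Icos* and 0.93 for *Cd28* in T cells, 1.00 for *Icos* and 0.73 for *Cd28* in CD4 T cells, and 0.65 for *Cd80*, 0.47 for *Cd86* and -0.46 for *Icosl* in monocytes/macrophages. In Y-linked cells (with a Y-linked UMI but none of *Xist*), they were 2.14 for *Ctla4* and 0.48 for *Cd28* in T cells, 2.54 for *Ctla4*, 0.51 for *Icos* and 1.00 for *Cd28* in CD8 T cells, 1.59 for *Ctla4* in *Foxp3* T cells, 1.2 for *Icos* and 0.31 for *Cd28* in CD4 T cells, and 0.0011 for *Cd86* in monocytes/macrophages. There *Icosl* in mature DCs reversed to 0.43. With gates on thinned cells, ratios were 1.63 for *Ctla4* and 1.59 for *Icos* in CD8 T cells, 1.45 for *Ctla4* in *Foxp3* T cells and 0.82 for *Cd28* in CD4 T cells. The mean over cells gave 1.62 and 1.59 for *Ctla4* in CD8 and *Foxp3* T cells, 0.10 for *Cd80* in mature DCs and -0.76 for *Icosl* in monocytes/macrophages. With both *Cd8a* and *Cd8b1*, *Icos* in CD8 T cells was 1.98. Without cells holding 2 markers of another class, *Cd80* was 0.64 and *Icosl* -0.28 in monocytes/macrophages, *Ctla4* in plasma cells was 3.43 on 3 and 14 UMIs, and it was 3.53 in their Y-linked cells. Without thinning, which leaves the deeper library more chances to show a UMI, the shares differed by 25.5 points for *Ctla4*, 14.6 for *Icos* and 19.4 for *Cd28* in T cells, and by 6.94 points for *Cd80* and 6.70 for *Cd86* in monocytes/macrophages. With thinning, these were 17.0, 7.05, 8.92, 1.25 and 2.95 points.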

Other observations

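Dendritic cells held a few receptor UMIs. *Cd28* in pDCs, the interferon-producing dendritic cells, was 31.6 CPM on 13 UMIs with PBS and 51.3 CPM on 18 UMIs with anti–PD-1, and 26.6 CPM and 47.9 CPM in pDCs without a T cell marker. *Icos* in pDCs had 0 UMIs and 3 UMIs. *Ctla4* in cDC1 had 0 UMIs with PBS, which allows up to 4.15 CPM at 3 counts, and 28 UMIs with anti–PD-1, at 33.1 CPM (22.03 to 47.9). Of those 28 UMIs, 4 lay in the 40 cDC1 without a T cell marker.

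*Icos* in mature DCs was 40.7 CPM and 14.0 CPM on 15 and 6 UMIs, and 12 and 4 of these UMIs lay in cells without a T cell marker. *Cd28* and *Ctla4* had no UMI in the mature DCs of the PBS library.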
